A study of Mus musculus with 8 samples.

Results

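The ephrins and their Eph receptors of blood vessels were examined in lung endothelial cells, isolated by cell sorting, of C57BL/6J mice that had been given an adeno-associated virus (AAV), a gene delivery vector. The set comprised 10 genes, matched by symbol to the 31610 gene rows of the count table. They were the B-class ligands Efnb1 and Efnb2, the A-class ligands Efna1 and Efna5, the B-class receptors Ephb1, Ephb2, Ephb3 and Ephb4, and the A-class receptors Epha2 and Epha4. Of these, 9 had enough reads to be tested and Ephb2 did not. The tested mice had received an nANGPTL4 AAV (4 libraries), and the others a control AAV (4 libraries). nANGPTL4 is the N-terminal fragment of ANGPTL4, a secreted inhibitor of lipoprotein lipase. In the titles the nANGPTL4 AAV libraries are called NT Treated, so that group was taken from the treatment field. The promoter of the vector, the dose, the time after injection and the age of the mice are not given in the sources used here.

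Ephrins are ligands that stay attached to the cell that makes them, and Eph receptors are receptor tyrosine kinases on the neighbouring cell. A-class ephrins are held in the membrane by a lipid anchor, whereas B-class ephrins cross it and can signal back into their own cell. In vessels ephrin-B2 is the classic marker of arteries and its receptor EphB4 that of veins, and the pair sets the border between both during development.

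The libraries held 83183122 to 114337333 counts each. They are labelled as independent biological replicates, and no pair within a group was as alike as counting error alone would make it (chi-square per degree of freedom 21.0 to 60.8). All 10 pan-endothelial markers were at 50.8 CPM or more in every library, with Pecam1 at 2647 CPM in nANGPTL4 AAV and 2734 CPM in control AAV (CPM, the read count scaled for library depth with TMM factors). Epcam, a pan-epithelial marker, was at 0.559 CPM in nANGPTL4 AAV and 0.557 CPM in control AAV, and Ptprc, that of leukocytes, at 0.780 CPM in nANGPTL4 AAV and 0.517 CPM in control AAV. Other epithelial markers were higher, such as the surfactant gene Sftpc at 112 CPM in nANGPTL4 AAV and 88.5 CPM in control AAV and the club cell gene Scgb1a1 at 31.7 CPM in nANGPTL4 AAV and 13.4 CPM in control AAV, and 11 of 13 had a positive log2 fold change. The mean log2 CPM of 45 markers of blood, epithelial and mural or fibroblast cells lay between 1.826 and 2.409 in nANGPTL4 AAV libraries and between 1.251 and 2.023 in control AAV libraries.

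The proximal promoters of Efnb2 and Ephb4 are shown because these genes form the artery and vein pair and had the smallest p-values of the set. Each sequence is the 250 bases before the RefSeq transcription start in GRCm38.p6. Capitals mark the CCAAT box (CCAAT) and the GC box (GGGCGG), on either strand.
Efnb2, chr8:8661243-8661492, minus strand: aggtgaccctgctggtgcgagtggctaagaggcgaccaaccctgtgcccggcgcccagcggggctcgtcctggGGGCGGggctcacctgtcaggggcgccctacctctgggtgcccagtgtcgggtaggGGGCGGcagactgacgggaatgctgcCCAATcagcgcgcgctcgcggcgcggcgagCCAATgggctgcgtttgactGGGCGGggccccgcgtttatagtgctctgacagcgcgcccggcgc
Ephb4, chr5:137349859-137350108, plus strand: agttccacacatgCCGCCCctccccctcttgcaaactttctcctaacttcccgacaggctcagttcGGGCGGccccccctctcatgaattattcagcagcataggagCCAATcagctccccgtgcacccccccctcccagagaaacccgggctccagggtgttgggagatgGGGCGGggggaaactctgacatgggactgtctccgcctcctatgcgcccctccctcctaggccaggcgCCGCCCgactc
Both hold the stretch CCAATCAG, 95 bases before the start in Efnb2 and 143 bases before it in Ephb4. On one strand or the other it occurs in 3 of the 11 promoters of the set, also that of Ephb1, and in 3.83% of all 32851 promoters. A CCAAT box occurs in 6 of the 11 and in 33.8% of all promoters. A GC box occurs in 8 of the 11 and in 32.7% of all. These 3 motifs were chosen after the sequences were seen. A core motif of RBPJ, the DNA-binding partner of Notch (TGGGAA), of ETS factors (CCGGAA), of SOX factors (AACAAT) and of nuclear receptors (AGGTCA) was searched on both strands and had no match in either window. These letters occur in 21.6% (RBPJ), 12% (ETS), 9.42% (SOX) and 14.0% (nuclear receptors) of all promoters. Shorter or variant forms were not searched, and the last letters of the ETS motif, GGAA, do occur in both windows. Of the bases, 72.0% were G or C in Efnb2 and 64.0% in Ephb4, against a median of 52.4% over all promoters.

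Per kilobase of exon, 4 genes of the set were abundant, 2 were intermediate and 4 were low, of which only Ephb2 was near the limit of detection. Efnb1 led with a mean of 235 CPM per kilobase over the 8 libraries (range 208 to 275). Ephb4 followed at 203 (181 to 235), then Efnb2 at 162 (133 to 187) and Efna1 at 157 (117 to 181). The ranges of these neighbours overlapped. Efnb1 exceeded Ephb4 in 7 of 8 libraries, Ephb4 exceeded Efnb2 in 8, and Efnb2 exceeded Efna1 in 5, so the order of Efnb2 and Efna1 was not resolved. The step to Epha2, a receptor of ephrin-A1, was 6.06-fold, to 25.9 CPM per kilobase (19.6 to 29.4). Epha4, which can bind ephrins of both classes, stood at 7.84 (5.82 to 9.39). The level of Ephb3, the next in order, was 33.2-fold lower still. Ephb3 was at 0.236 CPM per kilobase, Ephb1 at 0.167 and Efna5 at 0.117, each overlapping its neighbour. Ephb2 was at 0.0051 CPM per kilobase, with 3 to 9 counts per library in nANGPTL4 AAV and 4 to 9 in control AAV.

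The 10 genes made up 99.4% to 99.6% of the summed per-kilobase level of the 22 Eph and ephrin genes in every library. Efnb1, Efnb2 and Ephb4 alone made up 74.8% ± 3.29 in nANGPTL4 AAV and 76.0% ± 1.66 in control AAV (SD, n = 4 each). B-class ligands held 45.9% to 54.8% of it over the 8 libraries, and B-class receptors 24.9% ± 0.767 in nANGPTL4 AAV and 26.4% ± 1.94 in control AAV. EphA receptors were the smallest class, at 4.61% ± 0.704 in nANGPTL4 AAV and 4.31% ± 0.287 in control AAV. Among the B-class receptors nearly all of the level was Ephb4.

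**Figure D1:**
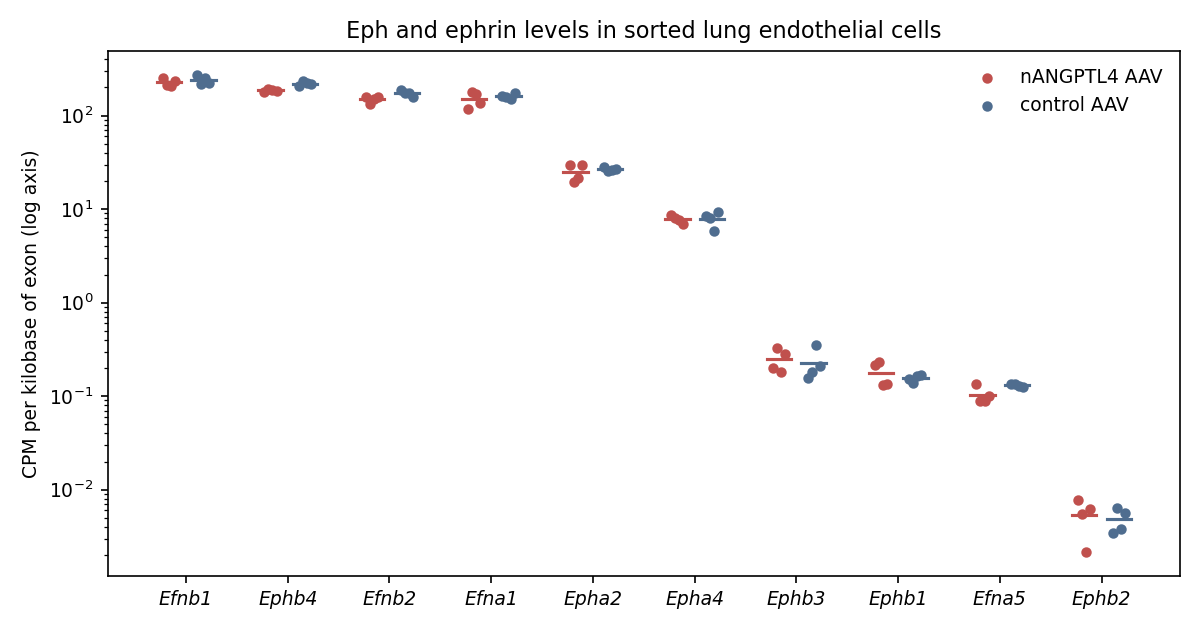
Level of each gene in CPM per kilobase of exon, on a log axis, for nANGPTL4 AAV and control AAV libraries (points: 4 libraries a group; lines: means). Efnb1, Ephb4, Efnb2 and Efna1 lie above 100 in every library, while Ephb3, Ephb1, Efna5 and Ephb2 lie below 1.

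The comparison of nANGPTL4 AAV with control AAV addresses which endothelial genes respond to delivery of the fragment. None of the 9 tested genes of the set passed an adjusted p of 0.05 in edgeR's quasi-likelihood test with Benjamini-Hochberg adjustment over all 18874 genes, where 0.138% of all genes passed (0.0901% lower and 0.0477% higher in nANGPTL4 AAV). At an unadjusted p under 0.05, 2 of the 9 were lower in nANGPTL4 AAV (Ephb4 and Efnb2) and 0 were higher, against 10.3% lower and 7.35% higher among all genes. DESeq2 called 1 of them, Ephb4, against 6.14% of the genes to which it gave an adjusted p (4.16% lower and 1.98% higher), and limma-voom with quality weights called 0. Of the 9 log2 fold changes 7 were negative, with a median of -0.10. Among all tested genes 47.8% were negative, and among those with a mean log2 CPM over 3, 62.5% were, with medians of 0.01 and -0.03. Of the 9, 6 were over that level (Efnb1, Efnb2, Ephb4, Efna1, Epha2 and Epha4), and all 6 were negative. The 2 positive genes, Ephb1 and Ephb3, were below it, as was Efna5. In bulk RNA, fewer cells of a type and less RNA per cell cannot be told apart.

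Ephb4, the venous receptor of ephrin-B2, is a plus-strand gene of 18 merged exons (mm10, chromosome 5, 137350109 to 137378669). It was at 838, 901, 871 and 856 CPM in nANGPTL4 AAV libraries 1 to 4, against 961, 1089, 1036 and 1000 CPM in control AAV libraries 1 to 4. Every nANGPTL4 AAV library was below every control AAV library, as in 6.99% of all tested genes, and the nANGPTL4 AAV libraries lay close together (mean 867 ± 26.4 CPM, against 1022 ± 54.6 CPM in control AAV, SD, n = 4 each). The log2 fold change was -0.24 (SE 0.05, 95% interval -0.35 to -0.13), which did not pass in edgeR (adjusted p = 0.0694) and passed in DESeq2 (adjusted p = 0.00143). Over the 18 alternatives it stayed between -0.28 and -0.19, with adjusted p-values from 0.00143 to 0.312. With the mean of the 45 markers of other cells as a covariate it was -0.28 (edgeR adjusted p = 0.312). Without the libraries of the lowest and highest such mean it was -0.27 (edgeR adjusted p = 0.145). Of the exonic bases of Ephb4, 0.711% overlap Zan on the other strand.

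Efnb2, the arterial ligand, is a minus-strand gene of 5 merged exons (chromosome 8, 8617434 to 8661242). It was at 1091, 910, 1024 and 1081 CPM in nANGPTL4 AAV libraries 1 to 4, against 1282, 1197, 1196 and 1089 CPM in control AAV libraries 1 to 4. The groups overlapped only through nANGPTL4 AAV library 1 and control AAV library 4, which were nearly tied. The means were 1027 ± 83 CPM in nANGPTL4 AAV and 1191 ± 79.4 CPM in control AAV (SD, n = 4 each). The log2 fold change was -0.21 (SE 0.07, 95% interval -0.37 to -0.06, edgeR adjusted p = 0.149), and the adjusted p was 0.0728 in DESeq2. With the mean of the 45 markers of other cells as a covariate the log2 fold change was -0.12 (edgeR adjusted p = 0.572). That mean was itself 1.826 to 2.409 in nANGPTL4 AAV and 1.251 to 2.023 in control AAV, so covariate and group partly coincide. Without the libraries of its lowest and highest value (control AAV library 1 and nANGPTL4 AAV library 2) the log2 fold change was -0.11 (edgeR adjusted p = 0.400). These 2 libraries were left out after seeing the data. Efnb2 has no 31-base stretch in common with another gene's transcripts.

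Efnb1, the other B-class ligand, is a plus-strand gene (chromosome X, 99136130 to 99148991). It was at 874, 737, 716 and 802 CPM in nANGPTL4 AAV libraries and at 948, 751, 876 and 778 CPM in control AAV libraries. The groups overlapped over most of their range, and the log2 fold change of -0.10 had a 95% interval of -0.29 to 0.09 (edgeR adjusted p = 0.579).

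Efna1, an A-class ligand whose main vascular receptor is EphA2, is a minus-strand gene (chromosome 3, 89271733 to 89281142). It was at 214, 331, 313 and 251 CPM in nANGPTL4 AAV libraries 1 to 4 and at 296, 293, 278 and 317 CPM in control AAV libraries 1 to 4. The nANGPTL4 AAV libraries lay on both sides of the control AAV libraries, 2 below all of them and 1 above. The log2 fold change was -0.10 (SE 0.12, 95% interval -0.35 to 0.16, edgeR adjusted p = 0.715).

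Epha2 (chromosome 4, 141301240 to 141329384, plus strand) was at 137, 91.8, 101 and 137 CPM in nANGPTL4 AAV libraries and at 133, 121, 122 and 126 CPM in control AAV libraries. Here too the nANGPTL4 AAV libraries lay on both sides of the control AAV libraries, with libraries 1 and 4 above them and libraries 2 and 3 below. The log2 fold change was -0.11 (SE 0.12, 95% interval -0.37 to 0.16, edgeR adjusted p = 0.693).

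Epha4 (chromosome 1, 77367185 to 77515088, minus strand) was at 68.9, 64.6, 60.9 and 56.4 CPM in nANGPTL4 AAV libraries and at 68.2, 64.0, 46.9 and 75.7 CPM in control AAV libraries. Control AAV libraries 3 and 4 held both the lowest and the highest value. The log2 fold change was -0.02 (95% interval -0.29 to 0.25, edgeR adjusted p = 0.941).

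**Figure D2:**
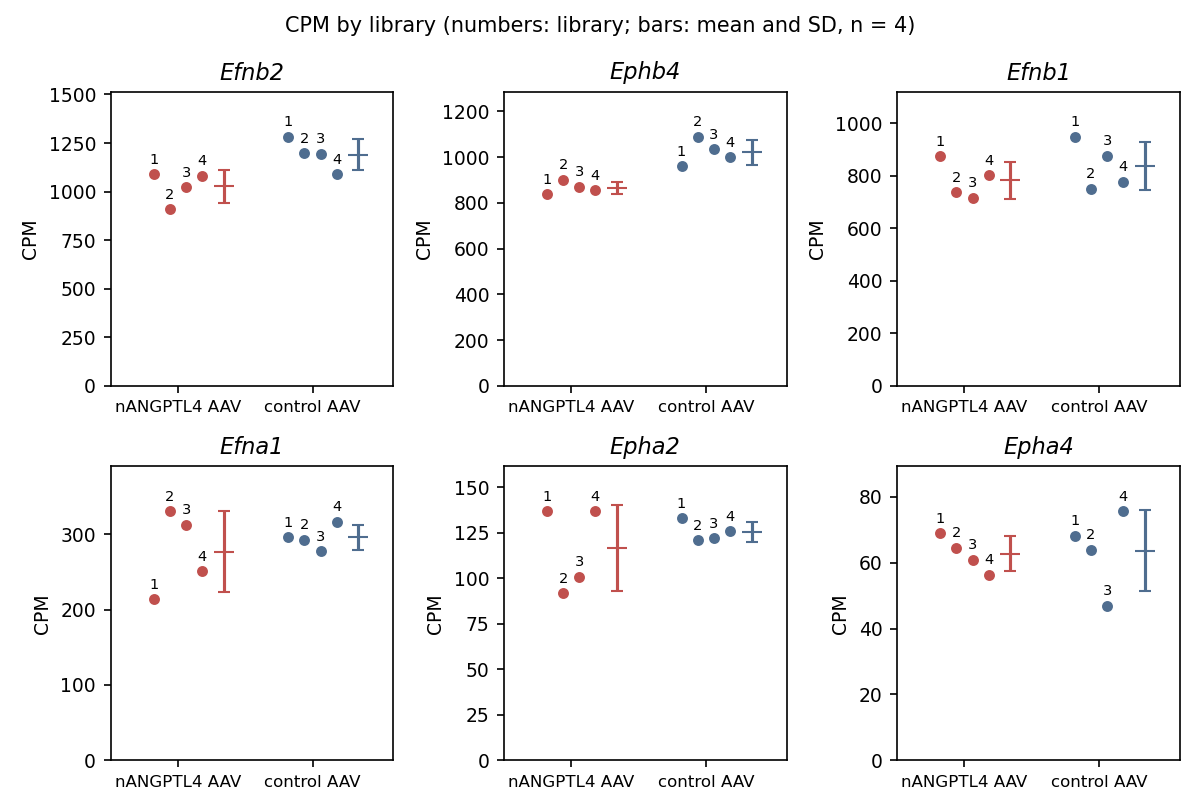
CPM of the 6 abundant and intermediate genes in each library (points numbered by library; bars: mean and SD, n = 4 each), with axes from 0. In Ephb4 the nANGPTL4 AAV libraries (838 to 901 CPM) all lie below the control AAV libraries (961 to 1089 CPM), and in the other panels the groups overlap.

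The remaining genes had few reads, and their intervals were wide. Efna5, an A-class ligand, had 36 to 50 counts per library in nANGPTL4 AAV and 43 to 62 in control AAV. Its CPM was 0.541, 0.356, 0.355 and 0.409 in nANGPTL4 AAV libraries 1 to 4, against 0.549, 0.549, 0.520 and 0.503 in control AAV libraries 1 to 4. All but nANGPTL4 AAV library 1 were below the control AAV libraries, and the log2 fold change of -0.36 had a 95% interval of -0.77 to 0.06 (edgeR adjusted p = 0.352). The receptor Ephb1 was at 0.911 to 1.63 CPM in nANGPTL4 AAV and 0.973 to 1.17 CPM in control AAV, with a 95% interval of the log2 fold change of -0.26 to 0.65. Of its exonic bases 2.17% overlap a noncoding gene on the other strand. The receptor Ephb3 was at 1.65 ± 0.456 CPM in nANGPTL4 AAV and 1.48 ± 0.574 CPM in control AAV (SD, n = 4 each), with an interval of -0.43 to 0.75. The intervals of these 3 genes do not exclude differences of the size fitted for Ephb4 or Efnb2. Those of Efnb1, Efna1, Epha2 and Epha4 do not exclude them either.

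**Figure D3:**
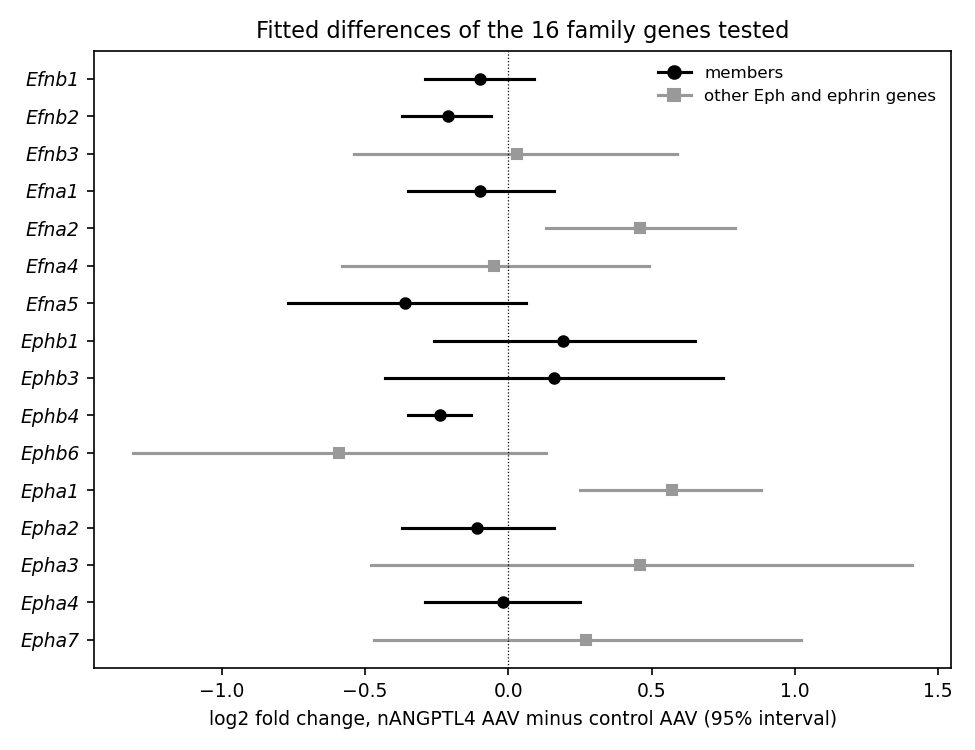
Log2 fold change of each tested Eph and ephrin gene, nANGPTL4 AAV minus control AAV, with its 95% interval from the edgeR fit (circles: the set described here; squares: the other family genes). The intervals of Ephb4 and Efnb2 lie below 0 and those of Epha1 and Efna2 above 0, and none of the 16 genes passed the adjusted threshold.

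The ligand and receptor of each pair were also compared inside each library, where scaling has no part. The ratio of Efnb2 to Ephb4, per kilobase, ranged from 0.684 to 0.881 in nANGPTL4 AAV and from 0.737 to 0.903 in control AAV. On the log2 scale it averaged -0.32 ± 0.16 in nANGPTL4 AAV and -0.34 ± 0.14 in control AAV (SD, n = 4 each). The difference of 0.02 was smaller than the spread between replicates (exact two-sided permutation p = 0.857, adjusted p = 0.943 over 3 ratios). The log2 ratio of summed ephrin-B to summed EphB, per kilobase, was 1.0 ± 0.16 in nANGPTL4 AAV and 0.92 ± 0.18 in control AAV (SD, n = 4 each), a difference of 0.09 (exact two-sided permutation p = 0.457, adjusted p = 0.943). The smallest p this design allows is 0.0286.

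The ratio of Efna1 to Epha2 had close means and a wider spread in nANGPTL4 AAV. On the log2 scale it was 1.99, 3.20, 2.99 and 2.22 in nANGPTL4 AAV libraries 1 to 4, against 2.50, 2.63, 2.54 and 2.68 in control AAV libraries 1 to 4. Libraries 1 and 4 of nANGPTL4 AAV lay below all control AAV libraries and libraries 2 and 3 above them. The means were 2.60 ± 0.59 in nANGPTL4 AAV and 2.59 ± 0.083 in control AAV (SD, n = 4 each), a difference of 0.01 (exact two-sided permutation p = 0.943, adjusted p = 0.943). The difference in spread was noticed in these data and was not tested.

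**Figure D4:**
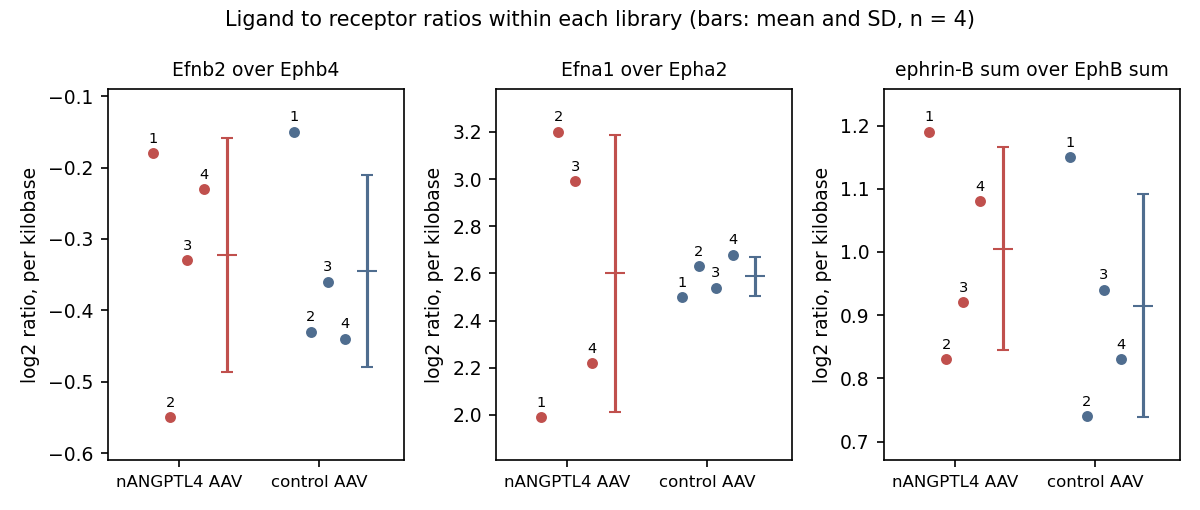
Log2 ratio of ligand to receptor per kilobase of exon in each library (points numbered by library; bars: mean and SD, n = 4 each); the axes do not start at 0. Group means differ by 0.02, 0.01 and 0.09, and the Efna1 to Epha2 ratio ranges from 1.99 to 3.20 in nANGPTL4 AAV and from 2.50 to 2.68 in control AAV.

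Across the 8 libraries, log2 CPM of Efnb2 and Ephb4 had a Pearson's r of 0.55 (exact permutation p = 0.160, adjusted p = 0.185 over 3 relations) and a Spearman's rho of 0.50 (exact permutation p = 0.216, adjusted p = 0.216). Without control AAV libraries 2 and 3, the farthest from the median of Ephb4, r was 0.339. With the group means removed r was -0.485, the opposite sign. Ephb4 and the mean of 11 venous markers had an r of 0.71 (exact permutation p = 0.0496, adjusted p = 0.149) and a rho of 0.643 (exact permutation p = 0.0962, adjusted p = 0.216). That r was 0.597 without nANGPTL4 AAV libraries 3 and 4, the farthest from the median of the venous mean, and 0.0517 with the group means removed. Efnb2 and the mean of 12 arterial markers had an r of 0.521 (exact permutation p = 0.185, adjusted p = 0.185) and a rho of 0.548 (exact permutation p = 0.171, adjusted p = 0.216). It was 0.561 without control AAV library 2 and nANGPTL4 AAV library 4, the farthest from the median of the arterial mean, and -0.511 with the group means removed. None of the 3 relations passed the adjusted threshold.

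Most of the artery and vein markers also had negative log2 fold changes, as did 62.5% of tested genes whose mean log2 CPM exceeded 3. So did 9 of 10 pan-endothelial, 7 of 9 general capillary and 6 of 7 lymphatic markers, while 2 of 11 aerocyte markers did. The venous mean was 4.98 log2 CPM in nANGPTL4 AAV and 5.23 log2 CPM in control AAV, with 11 of 11 markers negative and 0 called. The arterial mean was 7.27 log2 CPM in nANGPTL4 AAV and 7.48 log2 CPM in control AAV, with 11 of 12 markers negative and 1 called, Gja5, a gap junction protein of arteries. Gja5 fell to 64.0 CPM in nANGPTL4 AAV, against 96.9 CPM in control AAV (log2 fold change -0.60, edgeR adjusted p = 0.0317), where edgeR called 0.138% of all genes. These markers were chosen with earlier results of the same libraries known, and the part of vessel composition in the Ephb4 and Efnb2 values was not tested.

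By Pearson's r of log2 CPM over the 8 libraries, among 9252 other genes with a mean log2 CPM of at least 3, the genes most like Efnb2 were Nip7 (r = 0.992), Itpripl2 (0.988), Abi2 (0.984), Alkbh5 (0.983) and Csnk1d (0.981). Those most like Ephb4 were Mogs (r = 0.984), Rgs19 (0.981), Pald1 (0.978), Lrrc8b (0.977) and Tsen54 (0.971). Spearman's rho was at least 0.905 for the first 5 and at least 0.952 for the second. The points share the same 8 libraries, their depth and the group difference, and these genes are the extremes of a long list, so no p is given.

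Of the 12 other Eph and ephrin genes, 7 were tested and 0 were called, with 2 at an unadjusted p under 0.05, both higher in nANGPTL4 AAV, against 7.35% higher and 10.3% lower among all genes. Epha1, an A-class receptor best known from epithelia, was at 8.0, 7.59, 5.55 and 7.32 CPM in nANGPTL4 AAV libraries 1 to 4, against 5.33, 3.69, 5.12 and 5.11 CPM in control AAV libraries 1 to 4. The nANGPTL4 AAV libraries all lay above those of control AAV, as in 3.89% of all tested genes (log2 fold change 0.57, SE 0.14, edgeR adjusted p = 0.0961, DESeq2 adjusted p = 0.00519). Of its exonic bases 6.01% overlap Zyx on the other strand and 8.41% of its 31-base stretches recur in other genes, so its counts are less certain. Both shares include bases that overlap Zyx, because the stretches were searched on both strands. The 13 epithelial markers had a median log2 fold change of 0.20 and 11 of 13 were positive, though Epcam (0.00), Krt8 (0.02) and Krt18 (0.07) were near 0. Foxj1 was at -0.86 (edgeR adjusted p = 0.13) and Cdh1 at -0.04. At an unadjusted p under 0.05, 3 were higher and 1 was lower. The club cell gene Scgb3a2 was the 1 called higher (log2 fold change 1.30, edgeR adjusted p = 0.0369). Its level was low, at 0.804 CPM in nANGPTL4 AAV and 0.328 CPM in control AAV. Of all genes, 0.0477% were called higher, and 47.8% were negative. The epithelial markers had a summed level of 486.4 to 596.3 CPM in nANGPTL4 AAV and 347.3 to 506.9 CPM in control AAV. With the mean of the 45 markers of other cells, these epithelial ones among them, as a covariate, the Epha1 log2 fold change was 0.51 (edgeR adjusted p = 0.387). Without the libraries of the lowest and highest such mean it was 0.60 (edgeR adjusted p = 0.193). The part of the epithelial markers in the Epha1 values was not tested.

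Efna2, an A-class ligand, was at 3.33, 3.09, 4.92 and 3.92 CPM in nANGPTL4 AAV libraries 1 to 4, against 3.01, 2.54, 3.0 and 2.57 CPM in control AAV libraries 1 to 4. The nANGPTL4 AAV libraries all lay above those of control AAV, as in 3.89% of all tested genes (log2 fold change 0.46, SE 0.15, edgeR adjusted p = 0.155, DESeq2 adjusted p = 0.0461). Of the genes to which DESeq2 gave an adjusted p, it called 1.98% higher. The other tested family genes were below 3 CPM in every library, with log2 fold changes of 0.46 for Epha3, 0.27 for Epha7, 0.03 for Efnb3, -0.05 for Efna4 and -0.59 for Ephb6. Their edgeR adjusted p-values lay between 0.378 and 0.968. Of the exonic bases of Efna4, 10.5% overlap an antisense gene. The other family genes, Efna3, Epha5, Epha6, Epha8 and Epha10, had at most 20 counts in a library and were not tested.

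Of 32 genes for signalling downstream of Eph receptors, all were tested and 0 were called by edgeR. At an unadjusted p under 0.05, 7 were lower and 1 was higher, against 10.3% lower and 7.35% higher among all tested genes. The median log2 fold change was -0.05. The groups did not overlap in 7 of the 32 genes, 6 lower and 1 higher, against 6.99% lower and 3.89% higher among all genes. Rasa1, a GTPase-activating protein of Ras that binds Eph receptors, was at 121 ± 4.79 CPM in nANGPTL4 AAV and 143 ± 8.05 CPM in control AAV (SD, n = 4 each). Arhgef15, an endothelial exchange factor of the ephexin family, was at 732 ± 17.4 CPM in nANGPTL4 AAV and 838 ± 38.3 CPM in control AAV (SD, n = 4 each). Kalrn, an exchange factor for Rac, was at 18.1 ± 0.769 CPM in nANGPTL4 AAV and 14.3 ± 1.54 CPM in control AAV (SD, n = 4 each). All 3 are among the genes without overlap, with log2 fold changes of -0.23, -0.19 and 0.34 in that order, edgeR adjusted p-values of 0.0740, 0.0876 and 0.0844, and DESeq2 adjusted p-values of 0.00560, 0.00557 and 0.00384. They were picked for small p-values in the same libraries, and DESeq2 called 4.16% of genes lower and 1.98% higher.

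Of 10 genes for signalling through the ephrin, 9 were tested and 0 were called, with 3 lower and 1 higher at an unadjusted p under 0.05 (10.3% and 7.35% of all genes). Sdcbp, the PDZ adaptor syntenin, had a log2 fold change of -0.10, Stat3 one of -0.13 and the polarity protein Pard6a one of 0.14 (edgeR adjusted p = 0.224, 0.217 and 0.276 in that order). Of 7 genes for shedding and cleavage of these proteins, 6 were tested and 0 were called. All 6 log2 fold changes were negative, with a median of -0.12, where 62.5% of tested genes whose mean log2 CPM exceeded 3 were negative. Of the 6, 3 were lower at an unadjusted p under 0.05, against 10.3% of all genes. Adam10, a protease that sheds ephrins, was at 154 ± 10.7 CPM in nANGPTL4 AAV and 184 ± 5.82 CPM in control AAV (SD, n = 4 each). Every nANGPTL4 AAV library was below every control AAV library, as in 6.99% of all tested genes (log2 fold change -0.26, edgeR adjusted p = 0.0691, DESeq2 adjusted p = 0.00272). Adam17, a related protease, had a log2 fold change of -0.16 (edgeR adjusted p = 0.111, DESeq2 adjusted p = 0.0398). Of the genes to which DESeq2 gave an adjusted p, it called 4.16% lower.

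Of 21 regulators of artery and vein identity, all tested, 1 was called, the ETS factor Fli1, where edgeR called 0.138% of all genes. Fli1 fell to 119 ± 8.28 CPM in nANGPTL4 AAV, against 172 ± 14.9 CPM in control AAV (SD, n = 4 each; log2 fold change -0.53, edgeR adjusted p = 0.0369). The 3 next in order of p were Notch1, a receptor that acts upstream of Efnb2 in arteries, at -0.27, Nrp2, a coreceptor of veins and lymphatics, at -0.33, and the VEGF receptor Flt4, at -0.14 (edgeR adjusted p = 0.0674, 0.0905 and 0.136 in that order). In DESeq2 all 3 passed (adjusted p = 0.00168, 0.00936 and 0.0387 in that order), where it called 4.16% of genes lower. These 3 were picked for small p-values in the same libraries. Of the 21, 17 were negative, with a median of -0.17, against 62.5% negative among tested genes whose mean log2 CPM exceeded 3. Dll4, Hey1, Sox17, Nr2f2, Kdr, Erg and Flt4 are also among the endothelial markers counted above, so these counts are not independent. At an unadjusted p under 0.05, 8 were lower and 0 were higher, against 10.3% and 7.35% of all genes.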

How the data were processed

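RNA was measured in 8 libraries of sorted lung endothelial cells, 4 given an nANGPTL4 AAV and 4 a control AAV, grouped by the treatment field. The authors deposited whole-number counts for each Ensembl gene, without normalization. Per the labels' protocols, cDNA came from a low-input kit. Reads were placed on mm10 according to the submitters' processing notes; the aligner, counter, its strand setting and the annotation are not given in the sources used here. Identifiers without their version matched a symbol for 31491 of 31610 genes. Exon lengths, coordinates and overlaps came from GENCODE M21 on the same build, and promoters from RefSeq (GRCm38.p6), which held all 10 genes.

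Counts were fitted with edgeR 4.0.16 (R 4.3.3): filterByExpr with a minimum count of 10, TMM scaling, and the quasi-likelihood test with a single group term. Benjamini-Hochberg adjustment ran over 18874 genes, and called means past an adjusted p of 0.05. Fold changes are nANGPTL4 AAV over control AAV, in log2. P-values of group differences set the difference against the variation between these libraries. The edgeR fit estimates that variation with information shared across genes. Log2 CPM used a prior count of 2. Per-kilobase levels divide CPM by the union of annotated exons. Single values per library were compared by exact permutation over 70 arrangements (SciPy 1.17.1). In simulated counts for these genes, 48% of 50 genes changed 1.25-fold, 80% of 50 changed 1.5-fold and 98% of 50 changed 2-fold were recovered, with 12 unchanged genes called; the fitted differences of Ephb4 and Efnb2 are smaller than the smallest of these.

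The genes and lists were chosen with earlier results of these data known. All 10 genes of the set and the tested family genes are named; of each other signalling or regulator list, the called genes and the 3 next in p, of which 1 is not reported here; and the 5 genes most like Efnb2 and Ephb4. Alternatives were other scalings and low-count filters, DESeq2 1.42.0, limma 3.58.1, a replicate block, an other-cell covariate and libraries left out. No per-sample column was left unmapped.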

Additional observations from a re-analysis of the deposited data

Results flagged for a closer look

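Epha1 in control AAV library 2 stood apart from the other libraries of its group, at 1.89 log2 CPM against 2.36 to 2.42 log2 CPM in the other 3. Its gap to the nearest library was 0.883 of the range of the group, above Dixon's 95% critical value for 4 samples. Such gaps were looked for in 40 groups of 4, and chance marks about 1 in 20. Without that library the log2 fold change of Epha1 was 0.47 in place of 0.57.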

How the results depend on the processing

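No member of the set was called in 17 of 18 alternatives, and DESeq2 called 1 (Ephb4). The count of all called genes, 26 in the edgeR fit with TMM scaling, was 4 with upper quartile scaling, 4 with library size only, 17 with the stricter low-count filter (at least 50 counts in at least 4 libraries), 956 with DESeq2, 0 with the other-cell score as a covariate, and 1 to 2 with any one library left out. It was 2 without the libraries of the lowest and highest other-cell score together, an alternative chosen after seeing the data. With the replicate number as a block it was 6, with Ephb4 at -0.24 (adjusted p = 0.171). Same-numbered libraries correlated at 0.138, 0.165, -0.254 and -0.308 in their deviations, with mixed signs. No pairing is stated in the labels, and whether the numbers pair the libraries was not tested. Ephb4, Efnb2, Efna5 and Ephb6 stayed negative, and Ephb1, Epha1 and Efna2 positive, in each of the alternatives run.

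Signs turned in 9 of the 16 tested family genes, none of them called by edgeR. Epha4 was 0.02 with upper quartile scaling, 0.02 with library size only, 0.09 with the covariate and 0.01 without the 2 libraries. Ephb3 was -0.38 with the covariate and -0.12 without the 2 libraries, where Efnb1 was 0.00 and Epha2 0.04. Efna4 was -0.48 to 0.09 over all alternatives. With one library left out, the ranges were -0.13 to 0.07 for Epha4, -0.18 to 0.02 for Efna1, -0.19 to 0.01 for Epha2, -0.28 to 0.09 for Efna4, -0.13 to 0.18 for Efnb3, -0.04 to 0.64 for Epha3 and -0.16 to 0.44 for Epha7; the negative values of Epha3 and Epha7, 0.46 and 0.27 with all libraries, came without nANGPTL4 AAV library 4. The ratio differences ranged from -0.03 to 0.10 for Efnb2 over Ephb4, from -0.19 to 0.21 for Efna1 over Epha2 and from 0.03 to 0.17 for the class sums. With group means removed, r was -0.485 for Efnb2 with Ephb4 and -0.511 for Efnb2 with the arterial mean. The cause of these changes was not tested.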

Other observations

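The spread of several of these genes between libraries was unequal between the groups, a pattern chosen after the values were seen and not tested. The coefficient of variation of CPM was 19.6% in nANGPTL4 AAV and 5.43% in control AAV for Efna1, and 20.6% in nANGPTL4 AAV and 4.51% in control AAV for Epha2. For Ephb4 it was 3.05% in nANGPTL4 AAV and 5.34% in control AAV, and for Epha4 8.51% in nANGPTL4 AAV and 19.2% in control AAV.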
